A study of Homo sapiens with 4 samples.

Results

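Of 8665 promoters that were called open in all 4 ATAC-seq libraries, 1238 stood lower among the shared open regions in each I-BET151 library than in each DMSO library, and these falling promoters are described here. A promoter was a merged peak region within 1 kb of the start of a protein-coding gene in GENCODE release 44. In each library the 25627 regions that were called in all 4 libraries (of 164301 merged regions in all) were ordered by their highest fold enrichment and given a percentile from 0 (weakest) to 100 (strongest). A promoter was counted as fallen when its lower DMSO percentile exceeded its higher I-BET151 percentile by at least 10 points, a difference called the gap. The members were therefore selected on the fold enrichments of this same contrast in all 4 libraries, and their percentiles are given as a description, without a test. A promoter that moved the opposite way by the same gap was counted as risen, and 1072 did.

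The cells were pancreatic progenitors derived from MEL1, an established human embryonic stem cell line, which the study's methods name as MEL1 INS GFP/W, with a GFP reporter at the insulin gene. All were kept for 7 days in EF6, a DMEM-based medium with B27, EGF, bFGF and the TGF-beta receptor inhibitor 616452, and received either DMSO (2 libraries) or 1 μM I-BET151 (2 libraries). The labels give no separate differentiation or culture for each library, so the spread between replicates may be technical. One line was used, and the cells were measured in bulk, so fewer cells with an open promoter and less opening in each cell cannot be told apart.

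ATAC-seq uses the Tn5 transposase to cut and tag DNA that is not wrapped tightly around nucleosomes, so a pile of reads marks accessible chromatin. Promoters of active genes are usually held open just upstream of the start site, often within CpG islands bound by SP, ETS, NF-Y and NRF1 factors. I-BET151 occupies the bromodomains of the BET proteins, such as BRD2 and BRD3, which bind acetylated histones at promoters and enhancers and recruit P-TEFb, the kinase that releases paused RNA polymerase II. The fold enrichment of a peak is the number of reads piled up at its summit plus 1, divided by the local background plus 1, so it depends on both numbers.

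Sequences are given for 5 of the 12 promoters with the largest gaps, because they span the sequence types found among the falling promoters, from CpG-rich to AT-rich. Each is 151 bases of hg38 centred on the summit in DMSO replicate 1, read on the strand of the gene, and capitals mark exact matches to any of 15 short motifs on either strand. The windows are PHIP at chr6:79077017-79077167 (minus strand, in intron 4 of the canonical transcript), TRIM34 at chr11:5618945-5619095 (plus strand), H2AC4 at chr6:26033641-26033791 (minus strand), EOLA1 at chrX:149540138-149540288 (plus strand) and ZNF846 at chr19:9791937-9792087 (minus strand). The last 4 lie before the start of the canonical transcript.
PHIP: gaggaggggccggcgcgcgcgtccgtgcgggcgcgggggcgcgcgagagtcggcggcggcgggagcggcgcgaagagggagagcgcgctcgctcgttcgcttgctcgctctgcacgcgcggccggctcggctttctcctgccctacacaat
TRIM34: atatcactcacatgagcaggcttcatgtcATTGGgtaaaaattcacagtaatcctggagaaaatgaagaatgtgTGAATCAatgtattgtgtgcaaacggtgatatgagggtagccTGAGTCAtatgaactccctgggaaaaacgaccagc
H2AC4: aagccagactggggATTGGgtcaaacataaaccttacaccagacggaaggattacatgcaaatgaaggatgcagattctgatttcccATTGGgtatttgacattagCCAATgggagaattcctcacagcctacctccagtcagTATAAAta
EOLA1: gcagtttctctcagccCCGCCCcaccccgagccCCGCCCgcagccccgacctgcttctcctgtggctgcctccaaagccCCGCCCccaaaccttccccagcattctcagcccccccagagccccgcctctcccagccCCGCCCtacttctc
ZNF846: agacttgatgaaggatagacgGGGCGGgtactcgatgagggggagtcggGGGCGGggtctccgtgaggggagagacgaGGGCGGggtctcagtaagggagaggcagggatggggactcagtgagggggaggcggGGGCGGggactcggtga
The PHIP window was 76.8% GC and held none of the 15 motifs, EOLA1 (71.5% GC) and ZNF846 (67.5% GC) each held 4 GC boxes (GGGCGG, the element of SP and KLF factors), and the TRIM34 and H2AC4 windows were AT-rich at 41.7% and 43.0% GC. H2AC4, a replication-dependent histone H2A gene, held 3 CCAAT boxes (the NF-Y element) and a TATA box (TATAAA), the arrangement that is common at histone genes. TRIM34, a gene of the TRIM ubiquitin ligase family, held 1 CCAAT box and 2 AP-1 sites (TGANTCA, where N is any base). Among the 151-base windows of all 8665 shared promoters, 58.2% held a GC box, 29.7% a CCAAT box, 2.18% an AP-1 site and 1.55% a TATA box. A match describes the letters and does not show that a factor was bound.

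The fall in rank was seen in 14.3% of the shared promoters (1238 of 8665, 95% Wilson interval 13.6 to 15.04%). Among the 16962 shared regions away from gene starts the share was 13.5%, and over all shared regions it was 13.8%, so promoters fell about as often as other regions. The rise was seen in 12.4% of shared promoters and in 15.8% of the regions away from gene starts. Counted by gene, 1432 of the 9725 protein-coding genes with a shared promoter lay within 1 kb of a falling promoter (14.7%) and 1184 within 1 kb of a rising one (12.2%), and 3 genes had both. Intervals here cover counting error only. The Wilson interval treats promoters of the same 4 libraries as independent, which they are not, and it covers no spread between libraries.

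In DMSO the falling promoters were among the stronger regions, and in I-BET151 they stood near or below the middle of the list. The rule sets this in part, since a promoter with a DMSO percentile below 10 cannot fall by 10 points. Of the shared promoters with a mean DMSO percentile below 10, 0 of 586 fell, and of those at 90 or above, 0 of 1431 rose. The median percentile of the members was 75.4 in DMSO replicate 1 and 78.2 in DMSO replicate 2, against 49.1 in I-BET151 replicate 1 and 38.8 in I-BET151 replicate 2. Promoters that neither fell nor rose had medians of 62.4, 69.1, 69.0 and 58.3 in the same order. Of the 1238 members, 1016 and 1054 stood above the middle of the list in the DMSO libraries and 608 and 431 in the I-BET151 libraries. A total of 341 (27.5%) went from above the middle in both DMSO libraries to below it in both I-BET151 libraries. The median SD between replicates was 3.75 points in DMSO and 6.31 points in I-BET151 (n = 2 each). The median difference of the condition means (DMSO minus I-BET151) was 27.7 points. Over all shared promoters these values were 5.18, 7.25 and 1.49 points. The rule itself favours close replicates and a large difference, so the difference at the members cannot be judged against their spread.

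**Figure D1:**
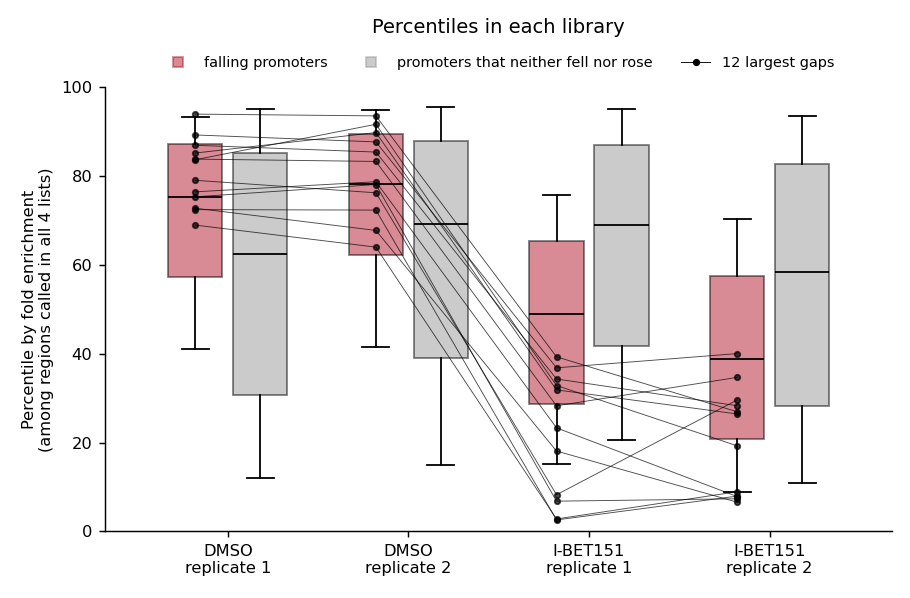
Percentile by fold enrichment (vertical axis, 0 to 100) in each of the 4 libraries for the 1238 falling promoters and the 6355 promoters that neither fell nor rose. Boxes span the quartiles with the median as a line, whiskers reach the 10th and 90th percentile of the promoters, and black lines join the 12 promoters with the largest gaps, which dropped to between 2.59 and 40.04 in I-BET151.

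Large gaps were few. The median gap was 17.7 points, 465 members had a gap of at least 20, 147 of at least 30, 44 of at least 40 and 8 of at least 50. Just inside the limit stood MPV17L2, with percentiles of 95.3 and 95.1 in DMSO and 78.3 and 85.1 in I-BET151, and NAA35, with 89.97, 84.6, 73.4 and 74.6. Just outside it stood ETFDH, with 16.4 and 10.1 in DMSO and 0.129 and 0.0507 in I-BET151, and RASA1, with 70.4, 84.7, 60.5 and 52.9. Of these 4 promoters, 3 stood in the upper part of the DMSO list, and ETFDH stood near its bottom.

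**Figure D2:**
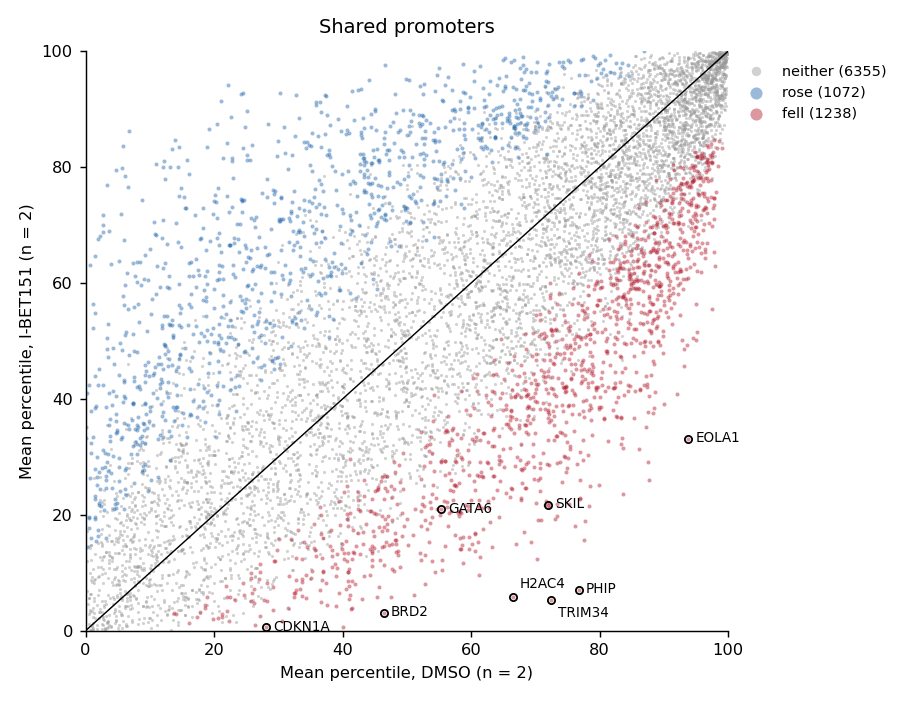
Mean percentile in DMSO (horizontal, n = 2) against mean percentile in I-BET151 (vertical, n = 2) for the 8665 shared promoters, with 1238 that fell, 1072 that rose and 6355 that did neither, and the line of equal percentiles. PHIP, TRIM34 and H2AC4 lie lowest on the right, and BRD2 and CDKN1A lie near the bottom at DMSO means of 46.4 and 28.1.

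The largest gap, 68.0 points, was at PHIP, which encodes a bromodomain protein that binds the pleckstrin homology domain of insulin receptor substrates. Its percentile was 75.3 and 78.1 in DMSO and 6.81 and 7.35 in I-BET151. The pileup at the summit was 35 reads in both DMSO libraries and 26 and 60 reads in I-BET151, over local backgrounds of 4.52, 4.86, 4.82 and 9.502 reads. The background of this region moved from the middle of the list in DMSO (percentiles 48.5 and 50.8) to its upper end in I-BET151 (90.8 and 88.8), while the pileup moved from 68.7 and 73.0 to 48.0 and 56.1. At TRIM34 the percentile was 72.5 and 72.4 in DMSO and 2.59 and 7.95 in I-BET151, and there the pileup itself stood low in I-BET151, at percentiles of 11.4 and 36.3 after 63.8 and 59.4 in DMSO. H2AC4 was at 69.0 and 64.0 in DMSO and at 2.80 and 8.94 in I-BET151, with pileups of 29, 27, 14 and 35 reads. Its pileup percentile was 51.8 and 53.2 in DMSO and 16.9 and 21.5 in I-BET151.

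EOLA1, on chromosome X, was the strongest of the 12 in DMSO, at percentiles of 94.0 and 93.6, and it stood at 39.3 and 26.9 in I-BET151. It has a close paralog on the same chromosome, EOLA2, so reads from the pair may not be separated. RICTOR, the defining subunit of the mTORC2 kinase complex, stood at 85.2 and 89.8 in DMSO and at 31.9 and 26.4 in I-BET151. CISD1, an iron-sulfur protein of the outer mitochondrial membrane, stood at 87.0 and 85.4 and then at 34.3 and 28.3. SVIP, an inhibitor of ER-associated degradation, went from 89.3 and 87.7 to 36.8 and 40.04. The ubiquitin ligase adaptor DCAF5 went from 83.8 and 83.3 to 28.3 and 34.7, and EPS15, an endocytic adaptor, from 72.8 and 67.8 to 18.1 and 6.59. Replicates were less alike at GALNT3, a glycosyltransferase, with 79.1 and 76.2 in DMSO and 8.26 and 29.6 in I-BET151. At ZFP91 (76.5, 78.7, 23.3 and 7.85) the summits of the 4 libraries lay up to 1617 bp apart within a region of 2265 bp, at GALNT3 up to 663 bp apart and at EOLA1 up to 641 bp apart, so the libraries did not rank the same position there. Over all members, 276 (22.3%) had summits more than 300 bp apart, compared with 16.9% of promoters that did neither. At ZNF846, with 83.7 and 91.7 in DMSO and 32.9 and 19.3 in I-BET151, the summits lay within 141 bp. Ranked by pileup, the gap was below 10 at EOLA1 (8.09), DCAF5 (7.41), RICTOR (6.99) and ZFP91 (5.32). It was also below 10 at ZNF846 (4.18), CISD1 (1.95) and SVIP (1.38), but not at EPS15 and GALNT3.

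The fold enrichment itself did not fall at most of these promoters. The median over the members was 6.53 and 6.15 in DMSO and 8.26 and 9.11 in I-BET151, and each I-BET151 value exceeded each DMSO value at 1082 members (87.4%), against 97.2% of all shared promoters. The reverse held at 4 members. Over all shared promoters the medians were 5.61 and 5.38 in DMSO and 9.84 and 10.6 in I-BET151, so the members gained less than the shared promoters as a whole. CDKN1A, the cell cycle inhibitor p21, shows the low end of the scale, with fold enrichments of 4.36 and 3.82 in DMSO and 3.19 and 4.22 in I-BET151 and percentiles of 30.1, 26.1, 0.139 and 1.08.

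Sequencing depth, as estimated from the peak lists, separated the conditions completely, and its effect cannot be told apart from that of I-BET151. The genome-wide background, taken as the lowest background in each list, corresponded to 38.7 and 36.6 M reads in DMSO and 12.5 and 16.0 M in I-BET151. This estimate assumed a genome of 2.7 Gb and took the shortest peak as the length of an extended read, and no read counts were used. At the members the local background was 1.96 and 1.88 times the genome-wide background in DMSO, and 4.62 and 5.74 times in I-BET151. Over all shared regions, which include those away from gene starts, these ratios were 1.60, 1.53, 2.41 and 2.99. Set against promoters alone the members differed less. Their median background was 5.62 and 5.93 reads in DMSO and 4.26 and 8.71 in I-BET151, compared with 5.36, 5.62, 3.16 and 6.45 over all shared promoters. The median pileup of the members was 42 reads in both DMSO libraries and in I-BET151 replicate 1 (exact Poisson interval 30.3 to 56.8) and 85 reads in I-BET151 replicate 2 (67.9 to 105), so a single promoter carries a counting error that the SD of 2 libraries does not show.

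Ranked by other values of the same peaks, the members moved less. By -log10 p their median percentile was 81.6 and 82.5 in DMSO and 66.9 and 68.6 in I-BET151, and 394 of the 1238 (31.8%) kept a gap of at least 10. By pileup the medians were 81.9, 82.6, 75.9 and 77.1, with 194 members (15.7%) beyond the gap, and 164 members (13.2%) ranked higher by pileup with I-BET151 in every pair of libraries, against 30.7% of all shared promoters. The local background moved the other way, from medians of 68.2 and 70.8 in DMSO to 86.6 and 85.6 in I-BET151. With I-BET151 it ranked higher in every pair of libraries at 978 members (79.0%) and by at least 10 points at 548 (44.3%), compared with 54.1 and 31.2% of all shared promoters. At promoters that did neither it went from 63.3 and 64.8 to 73.0 and 72.7. At rising promoters the background percentile was 67.8 and 65.7 in DMSO and 53.4 and 50.3 in I-BET151. These measures come from the same peaks that chose the members and are no separate evidence, and the part of the background in the fall was not tested.

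**Figure D3:**
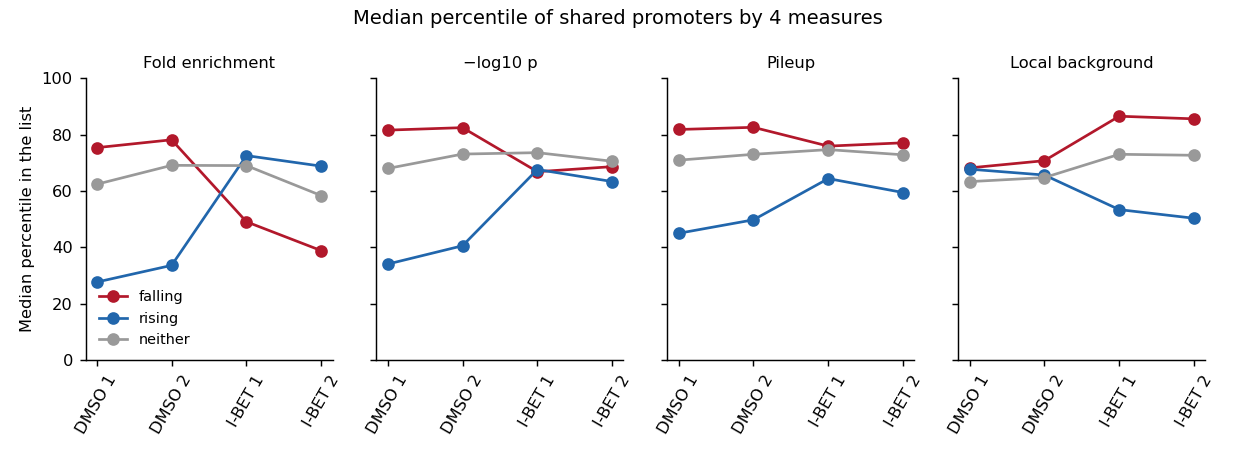
Median percentile (vertical axis, 0 to 100) of falling, rising and other shared promoters in the 4 libraries, ranked by fold enrichment, by -log10 p, by pileup and by local background. The falling promoters drop steeply by fold enrichment, from 75.4 and 78.2 to 49.1 and 38.8, and little by pileup, while their local background climbs from 68.2 and 70.8 to 86.6 and 85.6.

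The falling promoters were wide, lay in AT-richer surroundings and belonged to longer genes. The merged region had a median width of 1282 bp, compared with 1055 bp at promoters that did neither and 917.5 bp at rising promoters, and the summit lay a median of 159 bp from the gene start, compared with 103 bp and 87 bp. The GC content of the 300 bp around the summit had similar medians in the 3 sets, at 66.0, 66.0 and 67.3%, and the ratio of observed to expected CpG was 0.834, 0.830 and 0.828. The few promoters below 50% GC in that window fell more often, 10 of 24 (41.7%) at 30 to 40% GC and 63 of 269 (23.4%) at 40 to 50%. The surrounding 10 kb did differ, with a median GC content of 44.4% at falling, 46.0% at other and 49.5% at rising promoters. The nearest genes spanned a median of 49.9 kb at falling, 36.4 kb at other and 24.4 kb at rising promoters. Pairs of oppositely directed starts were found at 197 members (15.9%), compared with 13.4% of other promoters.

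Across the shared promoters the share that fell changed with both of these features. It was 19.7% of those whose surrounding 10 kb held 40 to 45% GC, 13.4% at 45 to 50%, 7.47% at 50 to 55%, 6.29% at 55 to 60% and 3.28% at 60 to 65%, and the share that rose went the other way, from 6.85 to 27.0% over the same bins. By width, 18.6% of the regions of 200 to 500 bp fell (21 of 113), 9.38% of those of 500 to 750 bp, 6.79% of those of 750 to 1000 bp, 28.7% of those of 1500 to 2000 bp and 34.1% of those of 2000 bp or more (61 of 179). The difference by width was seen in both AT-rich and GC-rich surroundings. In surroundings below 45% GC, 10.97% of promoters narrower than 1000 bp and 42.7% of those of 1500 bp or more fell, and at 50% GC or above these shares were 4.91% and 12.04%. The width is that of peaks merged over all 4 libraries and so is not independent of their signal, and the part of width and GC content in the fall was not tested.

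**Figure D4:**
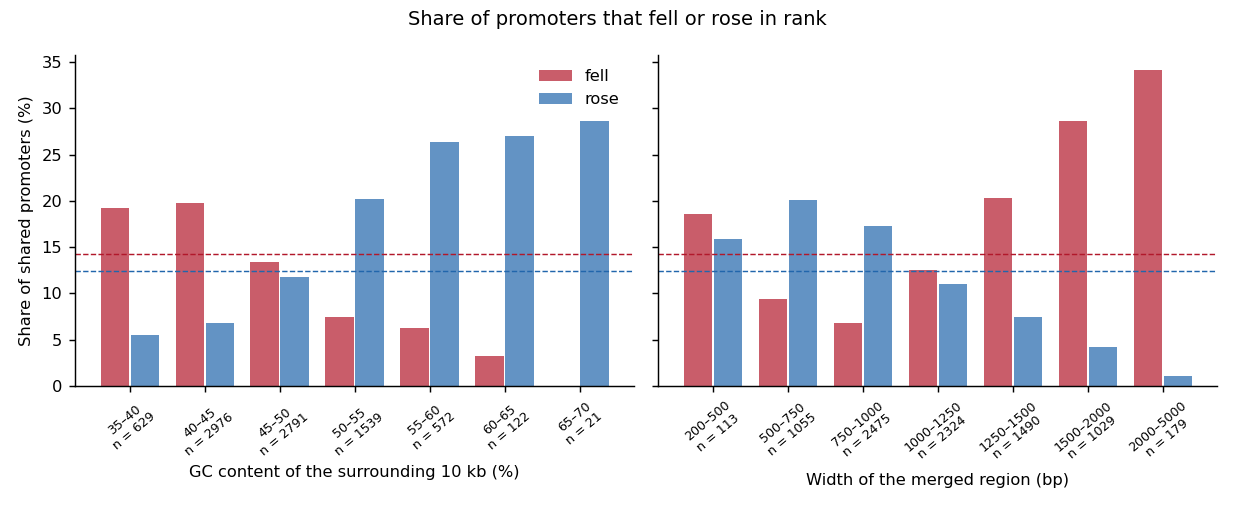
Share of shared promoters (vertical axis, percent) that fell or rose, by GC content of the surrounding 10 kb (left) and by width of the merged region (right), with the number of promoters under each bin. Dashed lines mark the shares over all shared promoters, 14.3% for falling and 12.4% for rising, and the falling share declines with GC content and climbs with width above 750 bp.

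By chromosome, the share that fell was highest on chromosome 21 (17 of 78, 21.8%), 13 (20.8%), 4 (20.3%), X (20.1%) and 6 (20.04%). It was lowest on chromosome 19 (35 of 570, 6.14%), 22 (8.23%) and 16 (8.70%), which had the highest median GC contents around their promoters, at 52.8, 50.4 and 50.1%.

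Of the 15 motifs, the ETS site (CCGGAAG) differed most in share. It was found in the 300 bp around the summit at 12.8% of falling promoters, 20.4% of other promoters and 21.5% of rising promoters, against 19.5% of all shared promoters. Where the summit lay within 100 bp of the gene start, the share was 16.8% of falling, 25.3% of other and 28.0% of rising promoters. The YY1 element (ATGGCGGC) was found at 3.63, 5.65 and 6.53% of the 3 sets. The TATA box was more frequent at falling promoters, at 5.09% compared with 3.21 and 2.89%, as was the palindrome CTCGCGAG, at 3.31% compared with 2.19 and 1.59%. GC boxes were found at 72.6, 73.4 and 73.3%, and CCAAT boxes at 36.0, 39.2 and 36.8%. Promoters are not replicates of a condition, and these shares were not tested.

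Histone genes were often at falling promoters. Of 40 histone genes with a shared promoter, 15 lay at a falling promoter (37.5%, against 14.7% of all genes) and 0 at a rising one (against 12.2%). They sat at 10 of 31 regions (32.3%), since paired H2A and H2B genes share a promoter, and 8 of the 10 lay on chromosome 6. A gene was counted when any region within 1 kb of its start fell, and 5 of the 15 genes also had a region that did not fall. For H2AC12 and H2BC12 the falling region had its summit 747 bp downstream of the H2BC12 start, beyond the end of that gene. This region stood at 53.1 and 55.6 in DMSO and at 8.05 and 12.2 in I-BET151. The region over the H2BC12 start, at 84.7, 63.4, 63.7 and 52.8, did not pass the limit. The promoter of H2AC7 and H2BC7 went from 71.6 and 68.8 to 29.4 and 14.8, and that of H2BC10 and H3C8 from 85.1 and 86.3 to 39.0 and 50.4. H2AZ1 and H3-3A, which encode variants that are also made outside S phase, fell too. H3-3A stood at 71.6 and 68.1 in DMSO and at 38.4 and 17.99 in I-BET151. The median difference over the 31 histone regions was -16.3 percentile points, and over all shared promoters it was -1.49.

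Of 20 genes of TGF-beta and BMP signalling, each with 1 region, 7 were at falling promoters (35.0%) and 0 at rising ones, a share below that of histone genes counted by gene and above it counted by region. They covered a ligand (TGFB2), the receptors BMPR1A and BMPR2, the transducer SMAD1, the targets ID1 and ID4, and SKIL, a transcriptional corepressor that restrains SMAD proteins. SKIL stood at 75.4 and 68.4 in DMSO and at 24.9 and 18.6 in I-BET151. TGFB2 went from 61.0 and 63.9 to 29.7 and 28.5, and BMPR2 from 67.5 and 59.4 to 28.4 and 25.2. Ranked by pileup, the gap was only 4.99 at SKIL, 0.56 at TGFB2 and 4.53 at BMPR2. All 4 libraries came from cells given 616452, which blocks the TGF-beta type I receptor.

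Of the 13 genes of the BET protein and P-TEFb list, 4 fell (30.8%) and 2 rose. BRD2, itself a target of I-BET151, stood at 42.7 and 50.1 in DMSO and at 4.08 and 2.21 in I-BET151, with fold enrichments of 4.85, 4.602, 4.23 and 4.70. Its local background was near the top of the list in all 4 libraries, at percentiles of 98.7, 98.4, 99.1 and 98.7. The other 3 were CCNT2 (94.5, 96.7, 79.3 and 74.6), a cyclin of P-TEFb, HEXIM2 (86.2, 75.02, 59.6 and 51.6), which holds P-TEFb inactive, and the elongation factor ELL2 (64.9, 82.3, 37.6 and 49.6). BRD3 rose, from 4.94 and 3.31 to 21.4 and 27.9. HEXIM1 did not pass the limit, with 20.2 and 39.3 in DMSO and 49.1 and 31.5 in I-BET151.

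Chromatin enzymes and remodellers fell at 20 of 75 genes (26.7%) and rose at 5. ARID2, a subunit of the PBAF remodelling complex, stood at 67.0 and 79.1 in DMSO and at 25.1 and 13.5 in I-BET151, and the group also held the histone demethylases KDM2A, KDM3A, KDM5A, KDM6A and KDM7A and the methyltransferase EZH2. Immediate early and stress genes fell at 6 of 27 (22.2%) and rose at 1: besides CDKN1A these were BTG1, DDIT3, DUSP6, FOSL1 and GADD45A. JUN and FOS did not pass the limit, with percentiles of 62.5, 76.8, 63.5 and 44.6 for JUN and of 20.2, 60.9, 32.4 and 21.0 for FOS. DDIT3 was counted for a region nearest to MBD6, which stood at 55.4 and 67.8 in DMSO and at 29.2 and 13.3 in I-BET151, while the region nearest to its own start was at 3.70, 6.71, 3.71 and 4.70 and did not pass the limit. Of 2 regions at GADD45A, the stronger one, at 91.4, 96.0, 87.3 and 75.4, did not pass it, and the weaker one fell from 37.5 and 16.7 to 4.88 and 0.238. Ubiquitin enzymes fell at 25 of 123 genes (20.3%), membrane traffic genes at 31 of 171 (18.1%) and genes of splicing and RNA binding at 28 of 157 (17.8%), against 14.7% of all genes. POLR2A and POLR2B, the largest subunits of RNA polymerase II, both fell, although their list as a whole fell at 11 of 99 genes (11.1%). POLR2A went from 57.7 and 68.8 to 20.9 and 8.21, with summits of the 4 libraries up to 795 bp apart. POLR2B went from 68.3 and 72.6 to 31.9 and 20.1. Ranked by pileup, the gap at POLR2B was 0.58, while POLR2A kept a gap of at least 10.

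Other lists were near or below the share over all genes. DNA replication fell at 5 of 34 genes (14.7%) and cell cycle control at 4 of 28 (14.3%), with 4 rising, among them E2F1, which went from 8.31 and 21.3 to 81.0 and 71.8. ORC6 lay at a promoter shared with VPS35 that stood at 96.2 and 98.6 in DMSO and at 53.9 and 57.2 in I-BET151. In the Notch pathway 2 of 15 genes fell, ADAM10, the protease that sheds the receptor, and the target HEY2, and 2 rose. The gap at ADAM10 was -10.6 by mean fold enrichment and 2.95 by pileup. HEY2 stood at 73.2 and 62.4 in DMSO and, with replicates far apart, at 43.1 and 12.8 in I-BET151. Its fold enrichment was 6.39 and 5.15 in DMSO and higher in I-BET151, at 7.76 and 6.61, and its gap by pileup was -13.9. Zinc finger genes fell at 35 of 336 (10.4%) and rose at 56 (16.7%), cytosolic ribosomal protein genes fell at 6 of 72 (8.33%), genes of adhesion and matrix at 4 of 50 (8%) and proteasome genes at 1 of 40 (2.50%). The families were collected by gene symbol and may hold a gene of another function.

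Of the 12 pancreatic progenitor markers, 6 had a shared promoter, among them NKX6-1, SOX9 and GATA6, and PDX1 was not among them. GATA6, a transcription factor needed for pancreas formation, fell. It stood at 53.0 and 57.5 in DMSO and at 27.6 and 14.4 in I-BET151. The fall was in rank only, since its fold enrichment was 5.27 and 4.93 in DMSO and higher in I-BET151, at 6.49 and 6.79. Ranked by pileup, the gap at GATA6 was 4.74. NKX6-1 did not pass the limit, with 48.9 and 64.0 in DMSO and 65.9 and 33.9 in I-BET151, nor did SOX9, with 14.2, 24.8, 24.9 and 16.6. Of the 6 mesenchyme markers with a shared promoter, ZEB1, a repressor of epithelial genes, fell from 51.8 and 43.3 to 5.56 and 6.13 and COL1A1 rose from 5.80 and 9.26 to 38.2 and 49.4. Of the 2 endocrine markers ISL1 rose, from 1.83 and 9.91 to 67.6 and 47.8. None of the duct (6), liver (3), pluripotent (2) and acinar (1) markers with a shared promoter fell or rose.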

How the data were processed

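ATAC-seq was measured in 4 libraries, 2 with DMSO and 2 with 1 μM I-BET151, grouped by their labels. The authors aligned reads to hg38 with Bowtie2 (2.2.5) and called peaks in each library with MACS2 (2.1.2). Each deposited list gives a score (a display value, not used), a ratio at the summit (fold enrichment over local background), and the -log10 of the p-value and q-value, all relative to 1 library. The lists reach down to a -log10 q of 1.30 to 1.33 and hold 82568, 38295, 84995 and 111324 peaks. The shortest peak was 200 bp in both first replicates and 233 and 256 bp in the second ones. The lists hold peaks weaker than the p-value threshold in the methods, and the second replicates depart from the read extension given there, which enters their pileups and the depth derived from them.

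Peaks on the autosomes, X and Y were merged at 1 bp of overlap, and regions called in all 4 lists were ranked by highest fold enrichment. The whole-read pileup and local background were solved from fold enrichment and p-value, and matched the deposited -log10 p within 0.01 at 100% of peaks. The solver was tested on simulated data. Gene starts were the 20033 protein-coding ones of GENCODE release 44. Python 3.11.15, numpy 2.4.6, scipy 1.17.1, pandas 2.3.3, pysam 0.24.0 and samtools 1.23.1 were used.

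The members and gene lists were chosen with earlier results of these data known, so no contrast was tested. Named promoters were the 12 largest gaps, up to 3 per list with the largest gap, members among the cell type markers (not all are reported here), and the 2 nearest to the limit on either side. Named besides these, after their values were seen, were BRD3, HEXIM1, CCNT2, JUN, FOS, E2F1, ISL1, COL1A1, NKX6-1, SOX9, H2AC7, H2BC10 and H3-3A, and the genes listed without values. Alternatives were other ranked values, thresholds, overlaps, promoter limits, the replicate block and leaving out each library. Other assays reported by the study were not used here.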

Additional observations from a re-analysis of the deposited data

How the results depend on the processing

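The count of falling promoters moved with the gap required, the value ranked and the libraries. It was 545 (6.29% of shared promoters) by -log10 p and 561 (6.47%) by pileup, against 1238 (14.3%) by fold enrichment, and the rising counts were then 842 and 795 against 1072. The median gap of the members as first chosen was 4.27 by -log10 p and -0.31 by pileup, against 17.7. A gap of at least 5 gave 1861 (21.5%), and one of at least 20 gave 465 (5.37%) with 528 rising. By mean fold enrichment 13.2% fell, with -log10 p of at least 10 17.3%, with equal numbers of peaks 18.4% and with ranks over promoters alone 15.3%. Leaving out each library in turn gave 1550 to 2472 falling (17.1 to 28.1%) and 1396 to 2059 rising promoters, and a median gap of 18.5 to 25.4. The larger counts come with a gap taken over 3 libraries. They were 2110 without DMSO replicate 1 and 2472 without I-BET151 replicate 1 for falling, and 1913 without DMSO replicate 2 and 2059 without I-BET151 replicate 2 for rising. Of the members, 1171 to 1228 kept a gap of at least 10. Apart from merging and ranking anew, leaving out a library can only keep or widen a gap. The kept members and the larger median gaps were therefore largely set in advance.

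With the replicate block, where the gap is taken within libraries of the same number, 1482 (17.1%) fell and 1335 rose. A gap taken this way cannot be smaller than the gap over all 4 libraries. All 1238 members were thus kept by construction, and both counts could only grow. The labels do not say whether libraries of the same number were prepared together. The deviations of same-numbered libraries correlated at r = 0.0441 over 8665 promoters. Those promoters are not independent and come from 2 libraries per condition, so this value cannot show whether the numbers pair the libraries. Stricter thresholds, a 50% overlap and other promoter limits left the counts within 1.5 times.

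Of 75 named members, 46 kept a gap of at least 10 by -log10 p, 21 by pileup and 69 by mean fold enrichment. Ranked by pileup, the mean percentile was higher in I-BET151 at 10 of them, with gaps of -24.5 at COX7B, -3.27 at ELL2, -13.9 at HEY2, -7.85 at ITGA1, -0.90 at KIF21A, -5.38 at LAMC1, -11.0 at NAA35, -9.13 at ORC2, -7.69 at RPS6KA3 and -13.7 at VPS36. By -log10 p this was so among them at ORC2 (-4.48). The cause was not tested.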
